A study of Mus musculus with 6 samples.

Results

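The Sfmbt2 miRNA cluster is a tandem array of microRNA hairpins inside the gene Sfmbt2 on mouse chromosome 2. Its members were taken as all GENCODE genes of type miRNA, with a symbol starting Mir, that lie within Sfmbt2 on its strand, which gave 71 of the 2202 annotated miRNA genes. By family they are 29 Mir669 genes, 23 Mir466 genes, 14 Mir467 genes and 5 Mir297 genes. In GRCm38 coordinates Sfmbt2 covers chr2:10370510-10595253 on the plus strand, and the members lie between 10466663 and 10518279, a stretch of 51.6 kb that begins 96.2 kb from the start of the host gene. All 71 lie in 1 intron of 62.5 kb, intron 10 of the transcript Sfmbt2-201, and none overlaps an exon of it. The other 48 miRNA genes annotated within Sfmbt2 have provisional symbols and were not members.

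Small RNA of whole testis from C57BL/6 mice was sequenced after selection of 18 to 35 nt RNA, in 6 libraries of 1 per group. At 16.5 days post coitum (dpc) there was 1 Dnmt3L wild-type (WT) and 1 Dnmt3L knockout (KO) library, each a pool of testes from 7 or 8 mice. At 10 days post partum (dpp) there were Dnmt3L WT, Dnmt3L KO, Miwi2 WT and Miwi2 KO libraries, each a pool of 3 mice, with littermates as controls. Dnmt3L is a cofactor of de novo DNA methylation in germ cells, and Miwi2 is a PIWI protein that carries piRNAs into the nucleus of fetal germ cells. Each pool is 1 sample, so no difference below has a replicate check, and every interval covers counting error only.

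MicroRNAs are cut from hairpin precursors, first in the nucleus by Drosha and then in the cytoplasm by Dicer. Each hairpin can release a product from its 5′ side (the 5p arm) and one from its 3′ side (the 3p arm), of which the arm retained by an Argonaute protein accumulates. Bases 2 to 8 of the product, the seed, pair with target mRNAs. Sfmbt2 encodes a Polycomb protein and is an imprinted gene known for its role in the placenta, where the paternal copy is used and where this rodent-specific miRNA array is abundant. The counts here carry no allele information, so imprinting was not examined.

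Products of these families are rich in GU or CA repeats, which shows in the relatives elsewhere in the genome. The RefSeq miRNA table (GRCm38.p6) matched 0 of the 71 members by symbol. It held the relatives, of which 5 are printed because 4 carry the seed of a cluster product and the other was the relative with the most reads shared with no gene of the array. Capitals mark the seed, bases 2 to 8.
mmu-miR-466i-3p: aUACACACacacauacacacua
mmu-miR-467h: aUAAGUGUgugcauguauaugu
mmu-miR-466j: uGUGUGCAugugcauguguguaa
mmu-miR-467g: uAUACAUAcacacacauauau
mmu-miR-466q: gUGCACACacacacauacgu
The first lies at chr13:17747552-17747573 on the plus strand and shares its seed with the 3p product of Mir466f-2. The mmu-miR-467h sequence, at chr9:115381898-115381919 on the plus strand, has the seed of the 5p product of Mir467e. At chr10:60960802-60960824 on the plus strand, mmu-miR-466j has the seed of the 5p products of Mir466h and Mir466m. The seed of mmu-miR-467g, at chr5:34732872-34732892 on the minus strand, is that of the 3p product of Mir466d. No cluster product had the seed of mmu-miR-466q, at chr3:28419988-28420007 on the plus strand. No library held a read starting within 1 nt of the start of mmu-miR-467g or mmu-miR-466j. For mmu-miR-467h there was 1 such read in the fetal KO library and 1 in the Miwi2 KO library. The relatives were rare: all 10 Mir297, Mir466, Mir467 and Mir669 genes outside Sfmbt2 together gave 0.392 reads per 1000000 miRNA reads (RPM) in the fetal Dnmt3L WT library and 18.8 RPM in the Miwi2 KO library, the lowest and the highest value.

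Reads of 18 to 26 nt found without mismatch on the sense strand of a hairpin were counted, a read found in several miRNA genes was divided evenly over them, and levels were scaled to the reads of all miRNA genes in the library. The libraries held 28701563 to 47232494 reads, of which 25.6% to 75.5% were reads of miRNA genes. A level of 3 reads corresponded to 0.123 to 0.248 RPM, the limit that a count of 0 allows. Marker miRNAs of testis cell types were present in all libraries, including the Sertoli cell Mir202 at 103 to 800 RPM and a list of X-linked germ-cell miRNAs, of which 17 of 18 listed were annotated and had reads. The summed germ-cell list was 11110 and 10222 RPM in the fetal WT and KO libraries, 53455 and 15181 RPM in the Dnmt3L WT and KO libraries at 10 dpp, and 44213 and 87082 RPM in the Miwi2 WT and KO libraries. Other lists had other orders. Mir202 was at 103 and 211 RPM in the fetal pair, where the list of peritubular and mesenchymal miRNAs was at 44060 and 23108 RPM. The list of meiotic miRNAs was at 105 and 472 RPM in the Dnmt3L pair of 10 dpp and at 699 and 313 RPM in the Miwi2 pair, opposite to the X-linked list in both. The part of these differences in the results below was not tested. In whole testis, fewer cells of a type and less RNA per cell cannot be told apart.

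The cluster was a minor component of the testis miRNA pool. All 71 members together reached 81.4 RPM in fetal Dnmt3L WT testis (95% Poisson interval 76.4 to 86.5) and 239 RPM in fetal Dnmt3L KO testis (230 to 248). At 10 dpp they reached 223 RPM in Dnmt3L WT (218 to 229), 132 RPM in Dnmt3L KO (128 to 137), 562 RPM in Miwi2 WT (551 to 573) and 875 RPM in Miwi2 KO (860 to 890). The fetal WT library was thus the lowest and the Miwi2 KO library the highest, with the fetal KO and the 10 dpp Dnmt3L WT libraries close together in the middle. Even the highest value was 0.0875% of miRNA reads, whereas the 61 Mir genes of the imprinted Dlk1–Dio3 cluster on chromosome 12 made up 5.95% to 13.2% of them. The highest single member, Mir467d, ranked 234th among miRNA genes by mean level.

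**Figure D1:**
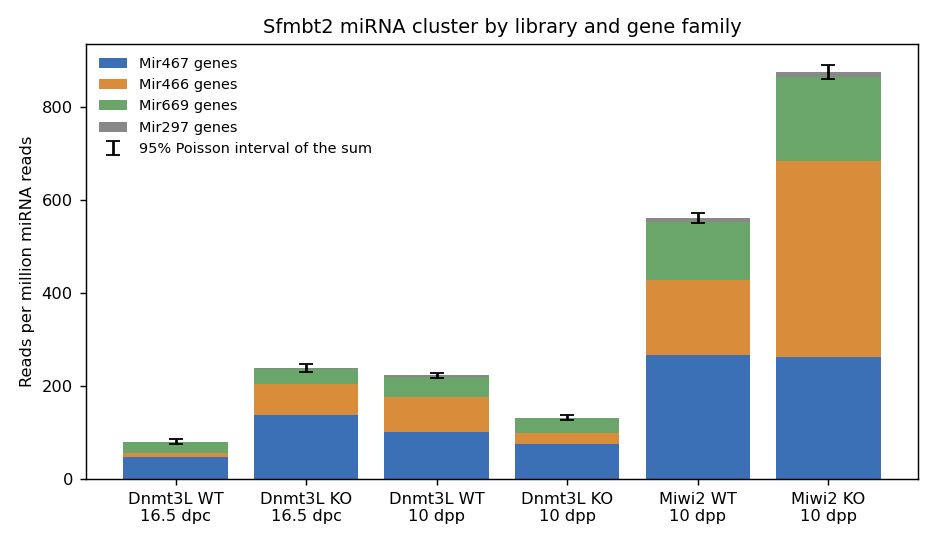
Summed level of the 71 members in each library, in RPM, stacked by gene family; the bar on top is the 95% Poisson interval of the sum, and each column is 1 library. The Miwi2 libraries stand at 562 and 875 RPM, above the 81.4 to 239 RPM of the Dnmt3L libraries, and the Mir466 layer differs most between libraries.

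The families did not contribute in constant proportion. Mir467 genes gave 48.6 and 139 RPM in the fetal WT and KO libraries, 102 and 75.7 RPM in the Dnmt3L pair of 10 dpp, and 268 and 262 RPM in Miwi2 WT and KO. Mir466 genes gave 8.71 and 66.0 RPM, then 74.8 and 24.6 RPM, then 160 and 421 RPM in the same order. Mir669 genes gave 22.7 and 32.3 RPM, then 42.8 and 31.1 RPM, then 125 and 180 RPM. Mir297 genes stayed between 1.01 and 11.3 RPM. Mir466 therefore spanned the widest range, being the smallest of these 3 families in fetal WT testis and the largest in Miwi2 KO testis.

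Most members cannot be measured one by one, because the copies are near identical. The 71 genes have 53 distinct hairpin sequences, and 24 members share theirs with at least 1 other. At least 1 read was found for 70 members, but only 27 had a read that no other miRNA gene holds, and all reads of 43 members also occur in other miRNA genes. Of all cluster reads, counted once each, 50.6% belonged to exactly 1 miRNA gene, 6.67% to 2 to 4 genes, 1.63% to 5 to 9 genes and 41.1% to 10 or more, with up to 30 genes for 1 read. A further property was that 11.0% of cluster reads also occur in a transcript of another gene on either strand, from 3.22% in the fetal WT library to 17.1% in the Miwi2 KO library. Only the longest transcript of each gene was searched. Introns, other transcripts and sequence between genes were not, so further copies in the genome were not examined. Mir669g had no read at all, and Mir669j had no more than a share of 1 read.

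Along the array, a few hairpins near its ends, each with a sequence of its own, stood above a flat middle. Only 4 members had a mean of at least 10 RPM. They were Mir466f-2 (27.6 RPM, 2.01 kb from the first member), Mir467c (18.5 RPM, 7.27 kb), Mir467d (97.6 RPM, 41.0 kb) and Mir466h (14.6 RPM, 48.2 kb). Of their reads 76.3%, 97.4%, 96.8% and 74.0%, in this order, were found in no other miRNA gene. Transcripts of other genes also hold 84.6% of the reads of Mir466f-2 3p and 87.6% of those of Mir466h 3p. Between 10 and 36 kb lie 30 members, of which 28 had means between 2.21 and 5.99 RPM. These even values follow in part from dividing shared reads equally over the copies. The remaining pair in that stretch were Mir669g and Mir669j.

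**Figure D2:**
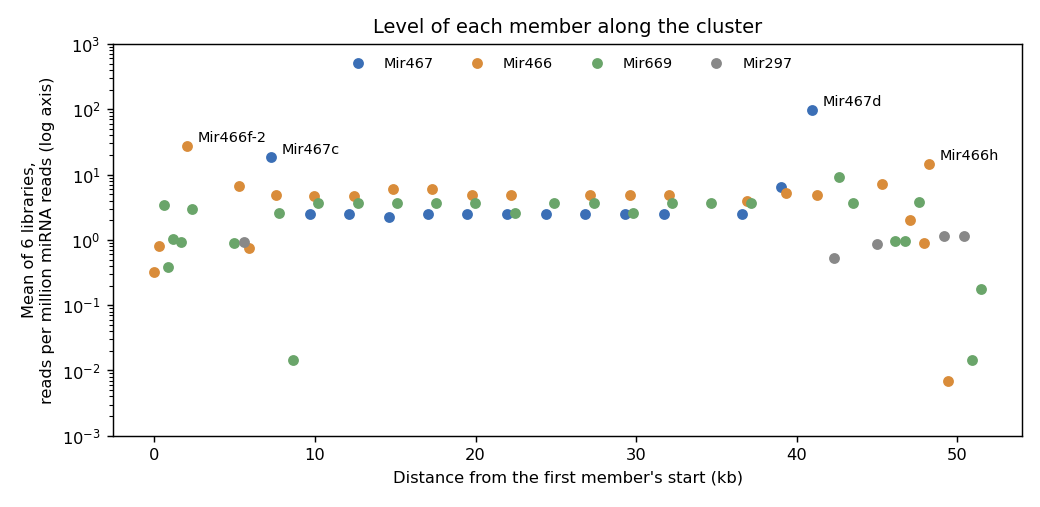
Mean level of each member over the 6 libraries on a log axis, in RPM, against its distance in kb from the start of the first member; each point is 1 gene, coloured by family, and Mir669g (no read) and Mir669j (below the axis) are not shown. The 4 labelled genes are those at 10 RPM or more, and the repeated middle of the array lies between 2.21 and 5.99 RPM.

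To report each mature miRNA once, the genes whose leading read on an arm shares its first 18 bases were joined into 1 product, named after a gene and its arm. This gave 48 products, 27 from 5p arms and 21 from 3p arms, of which 20 are carried by more than 1 member and 26 had at least 100 reads over the 6 libraries. The 3 highest held 52.8% of product reads and the 12 highest held 89.4%. Reads in the 48 products covered at least 99.3% of cluster reads in every library. Antisense reads were nearly absent: 1 read in all 6 libraries lay on the opposite strand of a hairpin only. Between 95.2% and 98.2% of cluster reads were 20 to 24 nt long.

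Mir467d 5p, made by a single hairpin, was the highest product. Its level was 35.6 RPM in fetal WT, 116 RPM in fetal KO, 51.0 RPM in Dnmt3L WT and 44.1 RPM in Dnmt3L KO at 10 dpp, 179 RPM in Miwi2 WT and 158 RPM in Miwi2 KO. Both Miwi2 libraries were higher than every Dnmt3L library, and the fetal KO library was higher than the other 3 Dnmt3L libraries. None of its reads occur in another miRNA gene or in a searched transcript of another gene, and it made up 16.9% to 46.7% of product reads in a library. Its 5′ end was not fixed, since 52.0% of its reads began at the most frequent position. The others began 1 nt away, the most that the definition of a product allows, and such a shift changes the seed. By comparison 97.4% of reads of Mir669a 5p and 98.9% of those of Mir466h 5p shared 1 start.

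Mir467c 5p, the other product with the seed of Mir467d 5p, followed another order. It gave 2.02 and 2.97 RPM in fetal WT and KO, 16.6 and 6.14 RPM in the Dnmt3L pair of 10 dpp, and 36.8 and 45.2 RPM in Miwi2 WT and KO. The fetal libraries were the 2 lowest here and their intervals overlapped, unlike those of Mir467d 5p. Mir467a 5p, which 11 genes carry, was at 9.92 and 16.8 RPM in the fetal pair, 29.8 and 22.5 RPM in the Dnmt3L pair at 10 dpp, and 41.6 and 38.7 RPM in the Miwi2 pair. Its seed is also that of mmu-miR-290a-3p in the RefSeq table, a product of the Mir290 cluster of pluripotent cells. Mir467e 5p stayed between 1.74 and 15.9 RPM.

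The Mir466 family was read mainly from its 3p arms in every library but the fetal WT one, where their share was 37.9% (29.1 to 47.4). Mir466 3p, carried by 13 member genes, had 1.41 RPM in fetal WT, 45.0 RPM in fetal KO, 53.0 RPM in Dnmt3L WT and 16.5 RPM in Dnmt3L KO at 10 dpp, 69.6 RPM in Miwi2 WT and 214 RPM in Miwi2 KO. The fetal WT library, with 17.5 reads after division, was far below the other 5. Mir466f-2 3p, carried by 2 genes, had 0.0806 RPM (1 read), 12.6, 16.0, 3.97, 40.1 and 146 RPM in the same order of libraries. Of its reads 84.6% also occur in transcripts of other genes, so its source in the genome is uncertain. The same holds for Mir466h 3p, with 87.6% of its reads in other transcripts and 1.11 to 16.9 RPM. Mir466d 3p, with 0.202 to 12.7 RPM, and Mir466 3p are nearly free of such overlap with the searched transcripts, at 0.116% and 0.00766% of reads. Whether their reads occur elsewhere in the genome was not examined. Mir466h 5p was low in every Dnmt3L library, with 25.8 and 33.7 RPM in the Miwi2 libraries against 1.11 to 3.72 RPM in the others.

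Mir669a gave reads from both arms. Its 5p product, carried by 14 genes, had 15.2 and 8.59 RPM in fetal WT and KO, 22.2 and 16.98 RPM in the Dnmt3L pair of 10 dpp, and 72.9 and 79.9 RPM in Miwi2 WT and KO. Its 3p product, carried by 13 genes, had 1.21 and 15.1 RPM, then 9.45 and 7.06 RPM, then 16.8 and 50.1 RPM. The fetal KO library was the lowest of the 6 for the 5p product and above the fetal WT and both Dnmt3L libraries of 10 dpp for the 3p product. Mir669c 5p, from a single hairpin with 99.7% of reads of its own, ranged from 2.58 to 20.5 RPM. On this scale all 26 products with at least 100 reads were highest in a Miwi2 library, and 13 of them were lowest in the fetal WT library. The share of all miRNA genes that did so was not counted. Over miRNA genes with at least 1000 reads, the median log2 ratio of Miwi2 WT over Dnmt3L WT at 10 dpp was itself 0.66.

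**Figure D3:**
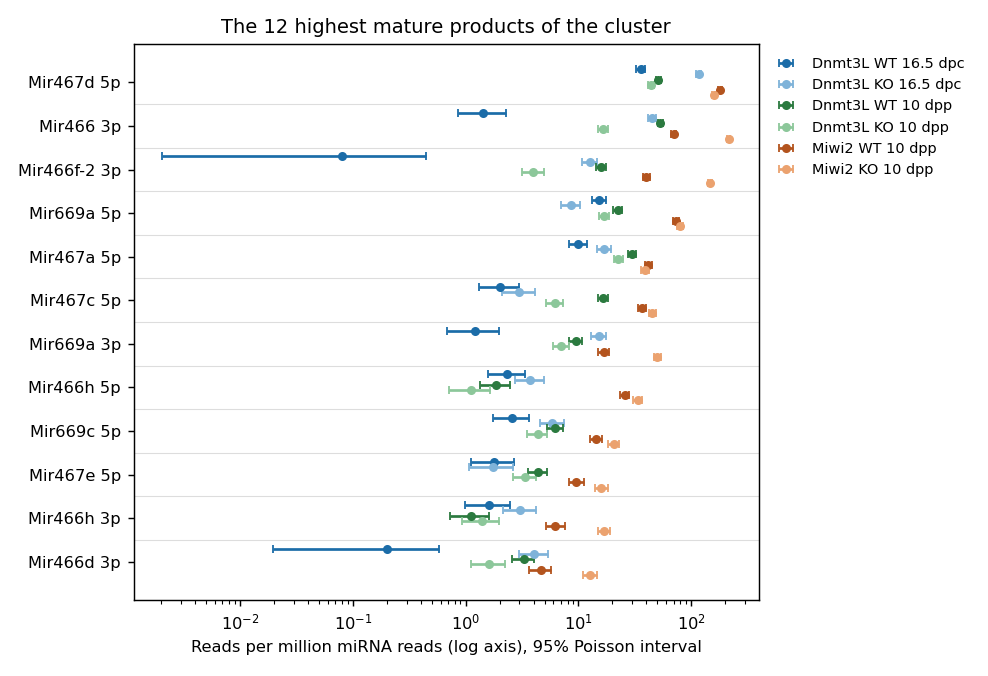
Level of the 12 highest products in each library on a log axis, in RPM; points are single libraries and bars are 95% Poisson intervals of the read count. The 3p products Mir466 3p, Mir466f-2 3p, Mir669a 3p and Mir466d 3p are lowest in the fetal Dnmt3L WT library. All 12 are highest in a Miwi2 library on this scale, a count not made for all miRNA genes.

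The 2 arms did not move together between libraries. Products of 5p arms summed to 79.5 RPM in fetal WT, 162 RPM in fetal KO, 146 RPM in Dnmt3L WT and 106 RPM in Dnmt3L KO at 10 dpp, 444 RPM in Miwi2 WT and 465.9 RPM in Miwi2 KO. Products of 3p arms summed to 4.999, 87.2, 92.1, 34.0, 147 and 469 RPM in that order. The 3p share was 5.92% in fetal WT (95% Clopper-Pearson interval 4.57 to 7.52), 35.0% in fetal KO (33.3 to 36.7), 38.7% in Dnmt3L WT at 10 dpp (37.4 to 39.9), 24.4% in Dnmt3L KO (22.8 to 25.9), 24.9% in Miwi2 WT (24.1 to 25.7) and 50.2% in Miwi2 KO (49.3 to 51.0). It was lowest in fetal WT and highest in Miwi2 KO, while the Dnmt3L KO and Miwi2 WT libraries of 10 dpp overlapped.

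Between both arms of largely the same hairpins, the 3p share moved with that of all products in the Miwi2 pair and not throughout in the Dnmt3L pair of 10 dpp. For Mir669a, whose arms have 12 genes in common, the 3p share was 7.35% in fetal WT and 63.8% in fetal KO, 29.8% and 29.4% in the Dnmt3L pair of 10 dpp, and 18.7% and 38.5% in Miwi2 WT and KO. For Mir467a, with 10 genes in common, it was 1.60% and 13.6%, then 8.31% and 4.70%, then 7.29% and 17.4%. Mir467a 3p is also carried by Mir467d, whose 5p reads form a separate product. The part of Mir467d in this share was not tested. In the single-copy hairpin of Mir466h it was 40.8% and 45.1% in the fetal pair, 37.5% and 55.6% in the Dnmt3L pair at 10 dpp, and 19.5% and 33.5% in the Miwi2 pair. The Mir466h intervals overlapped in both Dnmt3L pairs and not in the Miwi2 pair, and most of its 3p reads lie in other transcripts too. For Mir466d, whose 5p product is also carried by Mir466n, the share was 33.3% and 90.7% in the fetal pair, with 4 5p reads and 2.5 3p reads in WT. It was 78.4% and 89.7% in the Dnmt3L pair at 10 dpp, and 47.4% and 66.2% in the Miwi2 pair. In Miwi2 KO the 3p share was higher than in Miwi2 WT for all 4 hairpins. In the Dnmt3L pair of 10 dpp, where the overall share was lower in KO, only that of Mir467a was lower as well. Its intervals, 6.49 to 10.5 in WT and 3.03 to 6.91 in KO, overlapped slightly. The share of Mir669a was level, and those of Mir466h and Mir466d were higher in KO. In this pair the WT and KO intervals overlapped for all 4 hairpins.

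Other measures moved across the libraries as well. An 8 nt run of alternating A and C lies in the leading read of 10 of the 21 3p products and 0 of the 27 5p products; Mir466 3p does not hold it. Reads outside Sfmbt2 with this run stood at 21.5 per 1000000 reads of 18 to 26 nt in fetal WT and 63.4 in fetal KO, 18.0 and 9.10 in the Dnmt3L pair of 10 dpp, and 48.5 and 99.1 in Miwi2 WT and KO. Within each of the 3 pairs these reads were higher where the 3p arms were higher. The share of miRNA reads outside Sfmbt2 that begin with A, the first base of 5 of the 8 3p products and 9 of the 18 5p products with at least 100 reads, was 20.5% and 34.4%, then 19.1% and 23.98%, then 33.1% and 25.6%, which ordered the last 2 pairs opposite to the 3p arms. The part of either measure in the arm shift was not tested. Without the reads that also occur in other transcripts, KO to WT ratios of the 3p arms were 17.6 in the fetal pair, 0.374 in the Dnmt3L pair of 10 dpp and 3.06 in the Miwi2 pair, close to those with all reads given below.

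**Figure D4:**
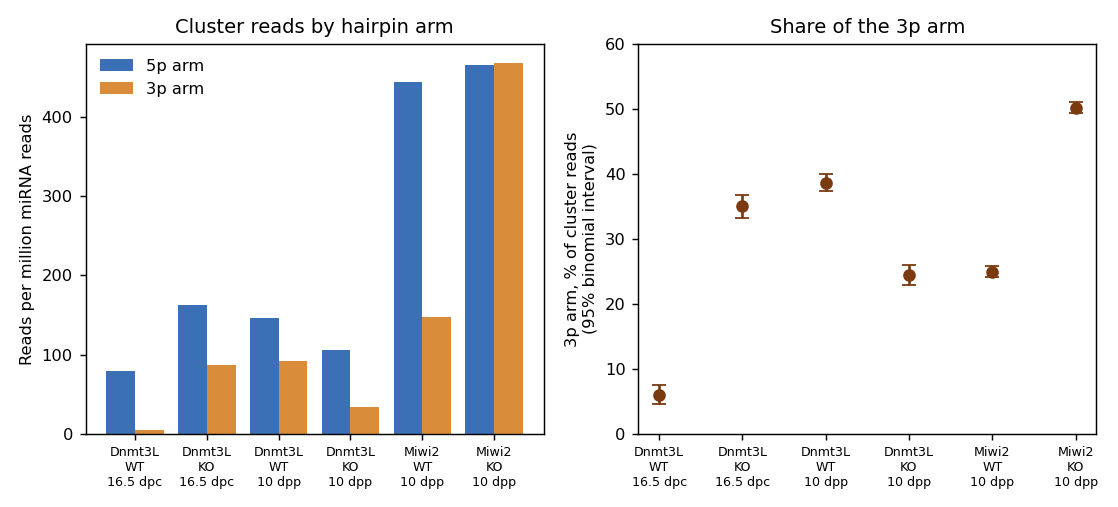
Left, summed level of 5p and 3p products of the cluster in each library, in RPM; right, the 3p share of these reads in percent with its 95% binomial interval. The 3p share runs from 5.92% in fetal Dnmt3L WT to 50.2% in Miwi2 KO.

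For a call without replicates, the limit was set from the pair of WT libraries of 10 dpp, which by their labels differ only in the line they come from. Over the 315 miRNA genes with at least 1000 reads in that pair, 95% lay within a log2 ratio of 2.53, a 5.79-fold difference. The Miwi2 WT library had 2.51 times the cluster level of the Dnmt3L WT library (95% conditional binomial interval 2.43 to 2.60). This difference depended on the scaling: it was 1.54-fold with scaling to all reads and 1.06-fold with TMM scaling. In that pair 15 of the 20 products with at least 100 reads were over 2-fold higher in Miwi2 WT and none was over 2-fold lower, beside 44.1% of all miRNA genes higher and 3.22% lower. Here and below, percentages and medians of miRNA genes are over whole genes, with both arms summed and shared reads divided. A product is 1 arm with the reads of all its copies, so the units differ. The 5p arms were 3.04 times as high and the 3p arms 1.60 times. Under scaling to all reads these ratios were 1.87 and 0.983, and under TMM scaling 1.28 and 0.674. This pair shares its libraries with the comparisons at 10 dpp.

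In fetal testis the cluster was higher without Dnmt3L, at 239 RPM against 81.4 RPM, a ratio of 2.94 (2.73 to 3.16), which did not pass the 5.79-fold limit. The ratio was 2.04 (1.89 to 2.20) for 5p arms and 17.4 (13.5 to 22.9) for 3p arms. Only Mir467d 5p had 1000 reads in the pair, with a ratio of 3.27 (2.94 to 3.65), so 0 of 1 product passed, beside 2.21% of all miRNA genes. With a minimum of 100 reads, for which the limit was 6.23-fold, 3 of 7 products passed, all higher in KO, beside 0.677% of miRNA genes counted with both arms together. They were Mir466 3p at 31.9 times (19.4 to 52.7), Mir669a 3p at 12.5 times (7.38 to 22.8) and Mir466f-2 3p at 156 times with an interval from 27.5 up to 6192, the last resting on 1 read in WT. Mir669a 5p, which has 12 genes in common with Mir669a 3p, had a ratio of 0.564 (0.440 to 0.720). The median log2 ratio was 1.71 over the 7 products and -0.10 over all miRNA genes with 100 reads. The minimum applies to the sum of the pair. Mir466 3p, Mir669a 3p and Mir466f-2 3p reached it through KO, with 544, 183 and 152 reads against 17.5, 15 and 1 in WT. Products lower in KO with few reads, such as Mir669b 5p with 24 in WT and 7 in KO, stayed out. The count, its direction and the median of the products therefore depend on this filter. The high 3p ratios all rest on the same fetal WT library, which held 62 reads of 3p products.

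At 10 dpp the cluster was lower without Dnmt3L, at 132 RPM against 223 RPM, a ratio of 0.593 (0.566 to 0.620), within the limit. The ratio was 0.722 (0.685 to 0.761) for 5p arms and 0.369 (0.339 to 0.401) for 3p arms. None of the 3 products with 1000 reads passed, beside 25% of all miRNA genes. With a minimum of 100 reads and a 2-fold limit, a rule chosen after seeing the data, 4 of 10 products were lower and none higher, beside 30.9% of all miRNA genes lower and 5.43% higher. These were Mir466f-2 3p (0.249, 0.194 to 0.315), Mir466 3p (0.311, 0.276 to 0.350), Mir467c 5p (0.370, 0.302 to 0.451) and Mir466d 3p (0.493, 0.322 to 0.742). Mir467d 5p differed least among the products with 1000 reads, with a ratio of 0.865 (0.794 to 0.942), which was 1.02 with scaling to all reads and 1.10 with TMM scaling. A share of 4 in 10 is close to that of miRNA genes at large in this pair.

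Without Miwi2 the cluster was at 875 RPM against 562 RPM, a ratio of 1.56 (1.52 to 1.60), also within the limit. The 5p arms were level, with a ratio of 1.05 (1.01 to 1.08) that was 0.922 when scaled without the 10 most abundant miRNA genes, and the 3p arms had a ratio of 3.18 (3.04 to 3.33). None of the 7 products with 1000 reads passed, beside 0.643% of all miRNA genes. At 2-fold and 100 reads, 8 of 24 products were higher and none lower, beside 8.26% of miRNA genes higher and 2.44% lower. Of these 8, 7 were 3p products. The highest ratios among products with 1000 reads were those of Mir466f-2 3p (3.64, 3.34 to 3.97), Mir466 3p (3.08, 2.88 to 3.29) and Mir669a 3p (2.98, 2.60 to 3.42). The lowest were those of Mir467d 5p (0.881, 0.834 to 0.930), Mir467a 5p (0.930, 0.832 to 1.04) and Mir669a 5p (1.10, 1.01 to 1.19). Mir466f 5p was the only 5p product among the 8, and all its reads also occur outside Sfmbt2.

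**Figure D5:**
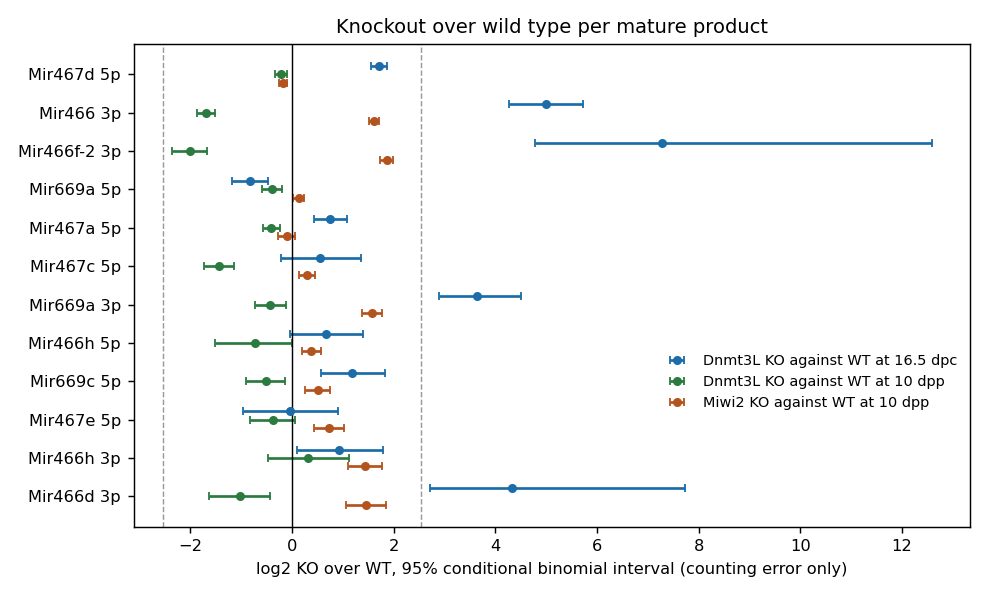
Log2 ratio of KO over WT for the 12 highest products in the 3 knockout pairs; points are the ratios of 2 libraries, bars their 95% conditional binomial intervals, and dashed lines the limit of 2.53 from the pair of WT libraries, which applies to products with at least 1000 reads. The 3p products lie right of 0 in the fetal Dnmt3L pair and in the Miwi2 pair, and all of them but Mir466h 3p lie left of it in the Dnmt3L pair of 10 dpp.

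Between 16.5 dpc and 10 dpp the cluster was higher at the later age in Dnmt3L WT testis, at 223 RPM against 81.4 RPM, a ratio of 2.75 (2.57 to 2.94), within the limit. Scaling to all reads gave a log2 ratio of 2.59 and TMM scaling one of 2.22, each past its own limit of 2.28 and 2.19. The 5p arms had a ratio of 1.84 (1.71 to 1.98) and the 3p arms one of 18.4 (14.3 to 24.1). Of the 2 products with 1000 reads, 1 passed, beside 20.9% of all miRNA genes. It was Mir466 3p, at 37.6 times (23.0 to 61.9), while Mir467d 5p had a ratio of 1.43 (1.29 to 1.60). With a minimum of 100 reads, 4 of 9 products passed, all higher at 10 dpp, beside 7.22% of miRNA genes: Mir466 3p, Mir466f-2 3p, Mir467c 5p and Mir669a 3p. These reached the minimum through the 10 dpp library, with 1296, 390, 405 and 231 reads against 17.5, 1, 25 and 15 at 16.5 dpc. The same holds for Mir466 3p at the minimum of 1000 reads. These counts and their direction therefore depend on the filter. Mir466 3p has too few reads of exactly 1 miRNA gene, 4 at 10 dpp and 1 at 16.5 dpc, to be measured from these alone. This comparison shares the fetal WT library with the fetal knockout comparison.

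Fragments of the host transcript were few. Reads of 18 to 26 nt within the longest Sfmbt2 transcript and in no miRNA gene numbered 18 in each fetal library, 87 and 16 in the Dnmt3L pair of 10 dpp, and 121 and 38 in Miwi2 WT and KO. In the Dnmt3L pair of 10 dpp and between the ages in Dnmt3L WT they were higher where the cluster was higher. In the fetal pair they were equal while the cluster differed, and in the Miwi2 pair they were lower in KO, where the cluster was higher. Reads of mRNA fragments in a small RNA library do not measure the level of the mRNA.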

How the data were processed

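Per the labels, small RNA of whole testis was prepared with the Illumina small RNA TruSeq kit from 18 to 35 nt RNA. The deposited tables list each read sequence with its count, which the authors made before deposit; the submitters' processing notes name the build mm9, and how reads were trimmed is not given in the sources used here. Reads of 18 to 26 nt were matched with 0 mismatches to the sense strand of 2202 miRNA hairpins of GENCODE vM21 (GRCm38), and shared reads were divided evenly. Reads within 1 nt of the leading 5′ end formed a product. Ratios for calls used a pseudocount of 0.5 reads; intervals are at 95% and, without molecular identifiers, cover counting error only. The limit was the 95th percentile of the size of the log2 ratio in the pair of WT libraries at 10 dpp. A minimum of 1000 or 100 reads applied to the sum of both libraries compared, so a product could enter through the library where it was high. With 1 library per group no test was run. Python 3.11.15, numpy 2.4.6, scipy 1.17.1, matplotlib 3.10.9 and, for TMM scaling factors, edgeR 4.0.16 in R 4.3.3 were used; the ratios and intervals were tested on simulated data. Named products were the 12 with the highest mean level and, per comparison, the 3 highest and 3 lowest ratios among those with at least 1000 reads. Members, lists and rules were chosen with earlier results of these data known. Alternatives changed scaling, read length, shared reads, minimum and limit.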

Additional observations from a re-analysis of the deposited data

Results flagged for a closer look

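For the cluster sum, both arms and 7 of the 12 highest products, the Dnmt3L KO to WT ratio had opposite directions at the 2 ages: its counting intervals lay above 1 at 16.5 dpc and below 1 at 10 dpp. The share of all miRNA genes with opposite directions was not counted. Over miRNA genes with at least 1000 reads, the median log2 ratio was -0.16 at 16.5 dpc and 0.25 at 10 dpp. With 1 library per group the difference between ages was not tested. The log2 ratio at 16.5 dpc exceeded that at 10 dpp by 2.31 for the cluster sum, by 1.497 for all 5p arms and by 5.55 for all 3p arms. Among 3p products it exceeded it by 8.70 for Mir466f-2 3p, 6.64 for Mir466 3p, 5.09 for Mir466d 3p and 4.02 for Mir669a 3p. The values for Mir466f-2 3p and Mir466d 3p rest on 1 and 2.5 reads in fetal WT and depend on the pseudocount. Among 5p products the difference was 1.92 for Mir467d 5p, 1.68 for Mir669c 5p and 1.16 for Mir467a 5p. For Mir467d 5p the opposite direction was lost with scaling to all reads and TMM scaling, where its ratio at 10 dpp was 1.02 and 1.10. These scalings also moved the 10 dpp ratio of all 5p arms, from 0.722 to 0.850 and 0.916, and that of all 3p arms, from 0.369 to 0.434 and 0.468. A change of scaling multiplies a ratio and both ends of its interval by the same factor. With scaling to all reads, the upper ends for Mir669a 3p and Mir669c 5p, 0.920 and 0.914 as reported, thus pass 1. With TMM scaling that of Mir467a 5p, 0.847 as reported, passes 1 as well. Those of Mir466 3p, Mir466f-2 3p and Mir466d 3p, 0.350, 0.315 and 0.742 as reported, stay below 1 under both. Other 5p products were lower in KO at both ages, with ratios of 0.564 and 0.764 for Mir669a 5p, 0.299 and 0.451 for Mir669b 5p, 0.134 and 0.403 for Mir466b-1 5p, and 0.128 and 0.483 for Mir669d 5p. The 5p arms of the Mir669 family together had ratios of 0.730 and 0.743. Mir669b 5p, Mir466b-1 5p and Mir669d 5p are outside the rule for named products and were named after their values were seen.

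Reads of the other miRNA genes within Sfmbt2 that no member holds entered no comparison. There were 33 in the Miwi2 KO library (2.30 RPM) and 9 in the Miwi2 WT library (0.507 RPM).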

How the results depend on the processing

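The cluster ratio kept its direction in all 4 comparisons under each of 9 alternatives, with log2 values from 1.03 to 1.63 for Dnmt3L KO at 16.5 dpc, -0.96 to -0.41 for Dnmt3L KO at 10 dpp, 0.07 to 0.91 for Miwi2 KO and 0.88 to 2.59 for age. The lowest values for Dnmt3L KO at 16.5 dpc, Miwi2 KO and age are those of 5p products alone. The age ratio passed its limit only with scaling to all reads (2.59) and TMM scaling (2.22), where the median of all miRNA genes also moved, from 0.28 to 1.42 and 1.05.

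The counts of products past the limit depended on the minimum and the limit, by comparison. For Dnmt3L KO at 16.5 dpc, 0 passed as reported, 3 with 100 reads, 6 with no minimum, 1 with a 2-fold limit, and 5 with both 100 reads and 2-fold. For Dnmt3L KO at 10 dpp, 0 passed as reported and with 100 reads, 2 with no minimum, 1 with 2-fold and 4 with both. For Miwi2 KO, 0 passed as reported, with 100 reads and with no minimum, 3 with 2-fold and 8 with both. For age, 1 passed as reported, 4 with 100 reads, 8 with no minimum, 7 with both and 0 with only reads of exactly 1 miRNA gene. The last follows from the filter, since Mir466 3p is carried by 13 genes and keeps 4 and 1 such reads. The rules with both changes, the sums by arm, those near leading reads and those without Mir467d were chosen after seeing the data.

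Of 280 values of named products under alternatives, 268 kept their direction. The other 12 were not all small: with only reads found in no other transcript, Mir466h 3p went from a log2 ratio of 0.32 to -3.00 for Dnmt3L KO at 10 dpp, and Mir466f-2 3p to -3.40 without changing direction. The fetal WT library held 1009 cluster reads, and single products there were at or near the limit that a count of 0 allows. Reads near annotated mature ends were not run, as the table matched no member. No paired analysis was possible because each group is 1 library, and leaving out a replicate was not possible for the same reason.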
